A study of Mus musculus with 18 samples.

Results

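The comparison covered the DMC1 hotspot maps of 2 kinds of hybrid male mice that differ at 1 allele of Prdm9, the infertile F1 and the rescue F1. In both, the cross is written PWDxB6, with the mother's strain before the father's. The infertile F1 carries the PWD and B6 alleles of Prdm9 and was mapped from a cross of PWD (PWD/PhJ) with B6 (C57BL/6J). The rescue F1 carries the PWD and humanized (Hum) alleles on the same PWD by B6 hybrid background. The Hum allele is a B6 Prdm9 gene whose zinc-finger array was replaced by the human one. All autosomal hotspots of both maps were members, 23554 of the infertile and 15019 of the rescue F1, together 38573 of 130304 autosomal hotspots in the 7 maps used. Centres of the infertile and the rescue map were paired when each was the other's nearest and lay within 1000 bp, and a pair was called PWD-matching when a hotspot of PWD/PWD males of the PWD strain lay within 1000 bp of both. The maps of 4 more genotypes served for comparison: the reciprocal F1 (B6/PWD) and the Hum/PWD F1, both from the opposite cross with a PWD father, B6 males homozygous for Hum (Hum/Hum), and B6/B6 males, the last made again by the submitters from reads that others had generated. The labels give about 10 weeks of age for the DMC1 libraries of the series, and the material was whole adult testis. Each DMC1 map is 1 library, so differences between maps have no replicate check and carry no p-value. H3K4me3 tables of the infertile and rescue F1, which the labels call littermates, held 2 biological replicates each. A whole testis mixes stages of spermatogenesis, and fewer cells at a stage cannot be told apart from less signal per cell.

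PRDM9 is a zinc-finger protein that binds DNA in meiotic cells and marks the place with H3K4me3, and double-strand breaks then form there. DMC1 coats the single-stranded DNA of a break while it is being repaired from the homologous chromosome, so a DMC1 signal reflects both how often a break forms and how long it lasts. A motif that PRDM9 has used for long tends to be lost from the chromosomes that carried that PRDM9 allele, because breaks are repaired from the copy that does not break. In a hybrid, such a site is then bound mostly on the other strain's chromosome, which is called asymmetric, whereas a symmetric site is bound on both copies. The deposited B6 share is the fraction of DMC1 reads from the B6 chromosome. Symmetric here means a share from 0.1 to 0.9.

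The short words that mark the sites of each PRDM9 allele are shown first, to let the sites of the shared PWD allele be seen beside those of the allele that differs. In the B6 reference sequence, the word CAAGTCA lay within 50 bp of 3.04% of 21103 PWD/PWD centres, against 1.37% of equal windows 1000 bp away. The word GATGCTGC lay at 2.18% of 16974 B6/B6 centres against 0.392% away, and GGGGGGGA at 2.28% of 15515 Hum/Hum centres against 0.490% away. Each word had the highest ratio of centre to flank in its homozygous map among words at 2% of centres or more, on both strands. No 8-letter word passed that rule above its flanks in the PWD/PWD map, so its word has 7 letters. This length was chosen after the data were seen. The sequences below are 101 bases of the plus strand of GRCm38.p6 (mm10, from RefSeq), centred on a pair, with the word or its reverse complement in capitals. The first 3 are the hottest PWD-matching pairs in the PWD/PWD map that were symmetric in both F1s and held the word.
chr8:53082763-53082863 (428914 bp upstream of Aga): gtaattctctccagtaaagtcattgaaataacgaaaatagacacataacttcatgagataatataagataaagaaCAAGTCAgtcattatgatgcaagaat
chr19:48438583-48438683 (intron of Sorcs3): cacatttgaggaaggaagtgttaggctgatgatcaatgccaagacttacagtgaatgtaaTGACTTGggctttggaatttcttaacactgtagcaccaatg
chr15:36783290-36783390 (intron of Ywhaz): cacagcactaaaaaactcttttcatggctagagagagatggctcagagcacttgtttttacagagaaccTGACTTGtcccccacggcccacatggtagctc
The next 2 are PWD-matching pairs at the ends of the scale, the first with a B6 share above 0.9 in both F1s and the second below 0.1 in both.
chr11:29529945-29530045 (coding exon of Mtif2): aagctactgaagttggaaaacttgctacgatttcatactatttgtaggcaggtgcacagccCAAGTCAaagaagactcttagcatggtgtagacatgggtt
chr3:7933111-7933211 (319401 bp upstream of Il7): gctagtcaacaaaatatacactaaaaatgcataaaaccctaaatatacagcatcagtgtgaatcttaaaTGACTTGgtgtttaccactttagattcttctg
The next 2 are pairs that matched no homozygous map and had a B6 share above 0.9 in both F1s.
chr4:22264028-22264128 (93465 bp upstream of Fbxl4): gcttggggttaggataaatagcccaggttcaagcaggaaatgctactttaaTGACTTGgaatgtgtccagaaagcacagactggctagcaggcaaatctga
chr4:48404884-48404984 (intron of Invs): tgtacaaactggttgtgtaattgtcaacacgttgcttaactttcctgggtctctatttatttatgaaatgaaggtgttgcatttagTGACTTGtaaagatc
The last 2 hold the words of the alleles that differ, the first a hotspot of the infertile map given to the B6 allele by the authors and the second a hotspot of the rescue map given to the Hum allele.
chr15:12582328-12582428 (intron of Pdzd2): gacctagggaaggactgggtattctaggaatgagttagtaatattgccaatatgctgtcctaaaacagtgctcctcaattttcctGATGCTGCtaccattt
chr19:53093459-53093559 (46934 bp upstream of Add3): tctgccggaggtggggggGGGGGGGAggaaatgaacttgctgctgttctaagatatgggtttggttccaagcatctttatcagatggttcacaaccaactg

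Heat is the deposited DMC1 signal of a hotspot, and scaled heat was brought to a sum of 1000000 over the autosomes of each map. The site in the Sorcs3 intron had a scaled heat of 112 in the infertile F1 and 40.2 in the rescue F1, with B6 shares of 0.438 in the infertile F1 and 0.394 in the rescue F1. The site upstream of Aga had 133 in the infertile F1 and 114 in the rescue F1, and its B6 share was 0.407 in the infertile F1 against 0.11 in the rescue F1. Both sites were hotter and more on the B6 copy in the infertile F1. The site in the Ywhaz intron went the other way in heat, with 166 in the infertile F1 and 245 in the rescue F1, and had B6 shares of 0.51 in the infertile F1 and 0.392 in the rescue F1. The site in the coding exon of Mtif2, a mitochondrial translation factor, had 244 in the infertile F1 and 308 in the rescue F1 and was almost wholly on the B6 copy in both, with shares of 0.969 in the infertile F1 and 0.966 in the rescue F1. The site upstream of Il7, an interleukin gene, had 104.98 in the infertile F1 and 63.1 in the rescue F1 and lay mostly on the PWD copy, with B6 shares of 0.079 in the infertile F1 and 0.085 in the rescue F1. Genes are given here to locate sites, and no expression was measured.

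The words were then counted at the sites of each allele. They were chosen at hotspots of the homozygous maps, which PWD-matching pairs match by definition and many B6 and Hum sites match too, so an excess at these sites restates the choice and is given as a description. CAAGTCA stood in the 300 bp around the centre at 11.5% of the 3770 PWD-matching pairs (Wilson 95% interval 10.5 to 12.5%) and in 4.35% of 300 bp windows 2000 bp away. All such intervals reflect only how many hotspots were counted. It stood at 4.27% of the infertile hotspots given to the B6 allele and at 4.50% of the rescue hotspots given to the Hum allele, close to the 4.60% and 4.58% of windows away from those sites. GATGCTGC stood at 6.74% of the infertile B6 sites against 1.21% away, and GGGGGGGA at 7.48% of the rescue Hum sites against 1.65% away. At PWD-matching pairs these other words were near their level away from the sites, with 1.22% against 1.30% for GATGCTGC and 1.30% against 1.60% for GGGGGGGA. A match of letters is a description of the B6 reference and does not show binding. CAAGTCA stood at 12.2% (10.2 to 14.4%, n = 944) of PWD-matching pairs with a B6 share above 0.9 in both F1s. It stood at 11.5% (10.02 to 13.1%, n = 1601) of those from 0.1 to 0.9 and at 11.4% (7.80 to 16.4%, n = 210) of those below 0.1. The intervals overlap, so the presence of the word in the B6 reference did not differ detectably with the copy that carried DMC1.

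Which hotspots the 2 hybrids share was asked first. The 5175 pairs made up 22.0% of the infertile map and 34.5% of the rescue map, with a median of 63 bp between the paired centres. These shares depend on the length of each list. With infertile hotspots under 13.7, the lowest deposited heat of the rescue map, left out, they were 31.1% and 33.2%. In the opposite cross, pairs made up 42.3% of the reciprocal and 35.9% of the Hum/PWD map. PWD/PWD males had a hotspot at 3770 of the 5175 pairs, 72.9% (71.6 to 74.0%). Only 195 pairs matched the B6/B6 or the Hum/Hum map without a PWD/PWD hotspot. The other 1210 pairs, 23.4%, matched no homozygous map. At these 1210 pairs DMC1 lay almost wholly on the B6 chromosome, where the median B6 share was 0.995 for the infertile F1 and 0.976 for the rescue F1. Of the 953 among them with a share above 0.9 in both maps, 13.01% held CAAGTCA (11.02 to 15.3%) against 4.56% away, with an interval that overlaps that of the PWD-matching pairs. These 953 pairs took no part in the choice of the word.

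Whether a PWD/PWD hotspot appeared at all differed widely between the F1s. Of 21103 PWD/PWD hotspots, 46.9% (46.2 to 47.6%) had a hotspot within 1000 bp in the infertile F1 and 19.05% (18.5 to 19.6%) had one in the rescue F1. Both F1s had 3789 of them, the infertile F1 alone 6110, the rescue F1 alone 231 and neither 10973. The lists are not equally deep. Calls began at a deposited heat of 4 for the infertile F1 and of 13.7 for the rescue F1. With infertile hotspots under 13.7 left out, 33.1% of PWD/PWD hotspots had a match in the infertile F1, still above the 19.05% of the rescue F1. Among the hottest 10% of PWD/PWD hotspots, 98.8% had a match in the infertile F1 (95.5% at the common floor) and 75.3% in the rescue F1. In the opposite cross, 34.7% had a match in the reciprocal F1 and 29.6% in the Hum/PWD F1.

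**Figure D1:**
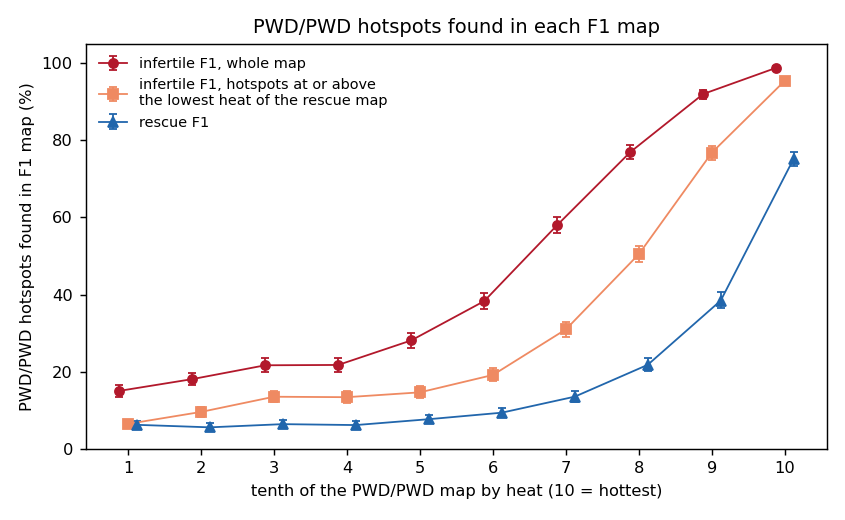
Share of PWD/PWD hotspots (vertical axis, %) with a hotspot within 1000 bp in each F1 map, in 10 classes of PWD/PWD heat from cold to hot (horizontal axis). Circles show the infertile map, squares the infertile map cut at the lowest heat of the rescue map, triangles the rescue map, and bars the Wilson 95% intervals. In the hottest class the values are 98.8%, 95.5% and 75.3%, and in the coldest class the cut infertile map (6.46%) and the rescue map (6.22%) have overlapping intervals.

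The 3 hottest PWD/PWD hotspots with a match in the infertile and not in the rescue F1 lay near Arhgef38 (chr3:133245011), near Slc44a1, a choline transporter gene (chr4:53435037), and near Dppa3, an early embryo gene (chr6:122661385). Their scaled heat was 57.8, 18.1 and 28.9 in the infertile F1, against 255, 253 and 248 in PWD/PWD. The 3 hottest found in the rescue F1 alone lay near Slc35d3 (chr10:19825646), 334025 bp upstream of Satb1, a chromatin organiser gene (chr17:52167315), and in an intron of Mtrex, an RNA helicase gene (chr13:112871357). Their scaled heat was 36.4, 38.0 and 48.2 in the rescue F1, against 184, 162 and 149 in PWD/PWD. All 6 had less than their PWD/PWD heat in the F1. Of the 6110 found in the infertile F1 alone, 54.6% had an infertile heat at or above the lowest heat of the rescue map. Their median B6 share in the infertile F1 was 0.556 and 80.6% were symmetric, against 0.687 and 56.4% for the PWD/PWD hotspots that both F1s had. Their median deposited heat in the infertile F1 was 14.9, against 92.2 for those that both had. The difference in symmetry thus cannot be told apart from one in heat.

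Where both F1s had a PWD site, the infertile F1 usually had the higher scaled heat, which is a share of each map's total. Hotspots given to the PWD allele by the authors held 46.1% of all heat in the infertile and 26.6% in the rescue F1. Those of the B6 allele held 40.3% in the infertile F1, and those of the Hum allele 61.4% in the rescue F1. More DMC1 at PWD sites thus cannot be told apart from less at the sites of the other allele. At the 3770 PWD-matching pairs the median scaled heat was 61.9 in the infertile and 38.5 in the rescue F1. The median ratio of infertile over rescue was 1.42, or 0.51 on the log2 scale (interval of the median 0.48 to 0.53), and 2933 of the pairs were hotter in the infertile F1. The heat of a site in one F1 followed that in the other, with a Spearman correlation of 0.816 across the 3770 sites, which share their libraries and so are not independent. More than 2-fold higher in the infertile F1 were 825 pairs, 21.9%, against 22.3% of all 5175 pairs. More than 2-fold lower were 215 pairs, 5.70%, against 6.13% of all pairs. These shares are near those of all pairs, most of which are PWD-matching themselves, so they say nothing particular about the PWD match. The 1210 pairs of no homozygous map had a like median ratio of 1.46. The 195 pairs that matched only the B6/B6 or Hum/Hum map had 0.634, with a median scaled heat of 39.8 in the infertile and 60.1 in the rescue F1.

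**Figure D2:**
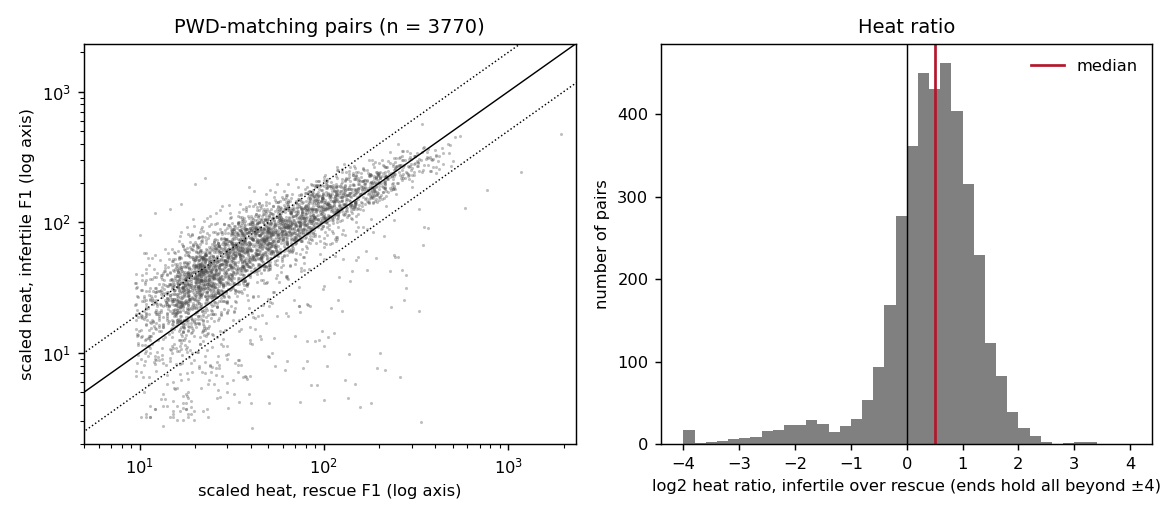
Left, scaled DMC1 heat of the 3770 PWD-matching pairs in the infertile (vertical, log axis) and rescue F1 (horizontal, log axis), 1 point per pair, with the line of equal heat and dotted lines at 2-fold. Right, number of pairs by log2 ratio of infertile over rescue, where the main hump lies right of 0 with its median at 0.51 and a smaller group lies left of -1.

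The pairs more than 2-fold lower often lay near a hotspot of another allele. Of the 215, 20% lay within 1000 bp of a B6/B6 hotspot, against 3.18% of all PWD-matching pairs and 1.83% of the 2730 pairs within 2-fold. Within 1000 bp of a Hum/Hum hotspot lay 57.2% of the 215 (50.5 to 63.6%), against 4.93% of all PWD-matching pairs and 2.23% of those within 2-fold. Centres lay more than 500 bp apart in 15.8% of them, against 0.696%. The 3 lowest ratios in the upper quartile of PWD/PWD heat all lay within 1000 bp of a Hum/Hum hotspot. They were in a coding exon of Kat6a, a histone acetyltransferase gene (chr8:22939496, scaled heat 4.15 in the infertile and 180 in the rescue F1), near Mgat5b (chr11:116996769, 3.88 in the infertile and 156 in the rescue F1) and near Fuca2 (chr10:13498514, 6.55 in the infertile and 258 in the rescue F1). The paired centres of these 3 lay 748, 876 and 859 bp apart, against a median of 63 bp over all pairs, and whether both heats belong to 1 hotspot was not tested. The 3 highest ratios were near Fosl2, far upstream of Cdh2 and in an intron of Wdr66. The site near Fosl2, an AP-1 transcription factor gene (chr5:32194745), had 197 in the infertile and 19.9 in the rescue F1. The site 472125 bp upstream of Cdh2, the N-cadherin gene (chr18:17281371), had 218 in the infertile and 22.6 in the rescue F1. The site in Wdr66 (chr5:123295049) had 138 in the infertile and 16.8 in the rescue F1. The sites near Fosl2 and in Wdr66 also lay within 1000 bp of a B6/B6 hotspot. Of the 825 pairs more than 2-fold higher 27 did (3.27%, 2.26 to 4.72%). This compares with 3.18% of all PWD-matching pairs, which include the 215 lower ones, and 1.83% (1.39 to 2.41%) of those within 2-fold. Without all sites that matched the B6/B6 or Hum/Hum map, 3513 PWD-matching pairs had a median log2 ratio of 0.54.

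Among the 1588 pairs that matched the hottest 10% of PWD/PWD hotspots, the infertile F1 was hotter at 1291 (81.3%). The 5 hottest, named here as single sites, had scaled heats of 430 to 468 in PWD/PWD, after 3 hotter pairs were left out because their input exceeded 10 times the median. The site in an intron of Klf5, a zinc-finger transcription factor gene (chr14:99308249), had 297 in the infertile and 386 in the rescue F1. The site near Akr1b3, the aldose reductase gene (chr6:34327657), had 302 in the infertile and 337 in the rescue F1. The site in an intron of Mastl, a cell cycle kinase gene (chr2:23151460), had 252 in the infertile and 299 in the rescue F1. The site in a coding exon of Smap1 (chr1:23848464) had 270.5 in the infertile and 489 in the rescue F1. Of these 5, 4 were lower in the infertile F1, and the site in an intron of 9930021J03Rik on chromosome 19 (chr19:29727924) was higher, with 250 in the infertile and 118 in the rescue F1. The 3 pairs that were hottest in both F1s among symmetric ones lay in an intron of Map4k5 (chr12:69815017), 239310 bp upstream of Gm597 (chr1:29019562) and in an intron of Celf2, an RNA-binding protein gene (chr2:6687356). All 3 were lower in the infertile F1, with 329, 323 and 314 against 406, 405 and 375 in the rescue F1.

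Over the whole hottest 10% of the PWD/PWD map, with sites missing from an F1 set at that map's lowest heat, the median ratio was 1.56 (n = 2114). The median scaled heat there was 54.4 in the infertile and 32.4 in the rescue F1, both below the 155 of PWD/PWD. This setting was chosen after the data were seen. Among colder PWD/PWD sites only those strong in the rescue F1 could be paired. In the coldest of the 10 classes, 67 pairs had a ratio of 0.440, with an interval of the log2 median from -1.76 to 0.19, and in every other class the median ratio lay between 1.29 and 1.46. Colder PWD/PWD sites that reached both F1s and had a B6 share in both lay mostly on the B6 chromosome. The median B6 share in the coldest class was 0.995 for the infertile and 0.985 for the rescue F1, and in the hottest class 0.561 for the infertile and 0.471 for the rescue F1. In the opposite cross, the reciprocal F1 over the Hum/PWD F1, 5532 PWD-matching pairs had a median ratio of 1.25.

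The ratio at PWD sites depended on the chromosome. All 19 autosomes had a median above 1, and chromosome 9 was lowest with 1.11 (log2 0.16, interval 0.04 to 0.25, n = 225). Chromosomes 12, 1 and 4 followed with 1.14, 1.203 and 1.22. At the other end were chromosomes 17 with 1.98 (n = 115), 19 with 1.97 (n = 102), 5 with 1.87 (n = 233) and 18 with 1.83 (n = 156). The intervals of 15 autosomes lay wholly above that of chromosome 9, while those of chromosomes 17, 19, 5 and 18 overlapped. On chromosome 19 the median scaled heat was 86.9 in the infertile and 38.5 in the rescue F1. On chromosome 9 it was 46.3 in the infertile and 36.5 in the rescue F1. The rescue medians covered 34.0 to 46.9 over the autosomes, whereas the infertile medians covered 46.3 to 88.4.

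The opposite cross, from other libraries, gave a like order of chromosomes. Reciprocal over Hum/PWD ran from 0.968 on chromosome 9 to 1.86 on chromosome 19, and 18 of 19 autosomes lay above 1. Across the 19 autosomes the log2 medians of both crosses had a Pearson r of 0.95 and a Spearman rho of 0.94, given as a description. Within the infertile and rescue libraries, the pairs that matched no homozygous map had a like order (rho 0.97), running from a log2 median of 0.10 on chromosome 9 to 1.04 on chromosome 19. So did the hottest 10% of PWD/PWD (rho 0.98). The total heat of a chromosome, over all hotspots of any allele, went the same way with a smaller range (rho 0.87). Chromosome 9 held 3.46% of the autosomal heat in the infertile and 4.44% in the rescue F1, and chromosome 5 held 7.39% in the infertile and 5.99% in the rescue F1. Higher ratios went with shorter chromosomes (rho -0.50 with length). The exceptions included chromosome 5, which is long and had a high ratio.

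H3K4me3 at the same sites did not have this order. The enrichment estimated by the authors was higher in the infertile F1 on all 19 autosomes, with a median ratio of infertile over rescue between 1.78 and 2.52 and 2.16 over 3657 bins. Enrichment is a ratio to local background in each table, and the tables were not brought to a common scale. More H3K4me3 at these sites thus cannot be told apart from a lower background over the whole table. Its log2 median had a rho of 0.20 with that of DMC1 heat over the 19 autosomes. Chromosome 19, with the second highest heat ratio, had the lowest H3K4me3 ratio.

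**Figure D3:**
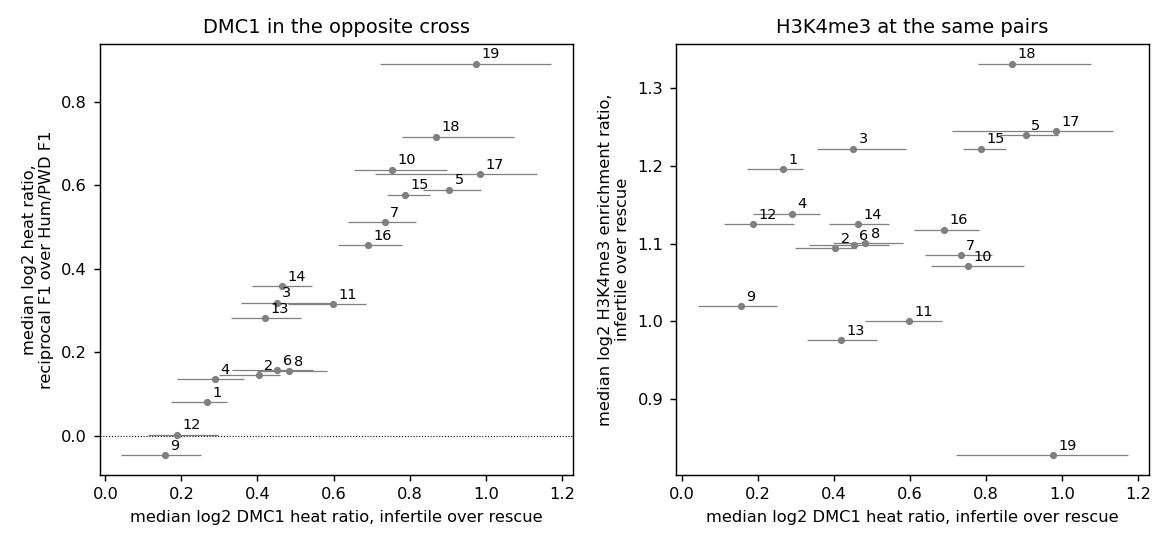
Median log2 DMC1 heat ratio of infertile over rescue at PWD-matching pairs (horizontal, bars are intervals of the median) for the 19 autosomes, labelled by number. Left, the same ratio of reciprocal over Hum/PWD F1, which rises along the diagonal from chromosome 9 to chromosome 19 (rho 0.94). Right, the log2 ratio of H3K4me3 enrichment at the same pairs, which shows no such order (rho 0.20).

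Which parental chromosome carried the PWD allele's breaks was compared at the 3131 PWD-matching pairs with a B6 share in both maps. The median share was 0.709 for the infertile F1 and 0.650 for the rescue F1, and the median difference was 0.022 (interval 0.019 to 0.026). The share of a site was much alike in both F1s. Its Spearman correlation across sites was 0.908, and 88.0% of the pairs fell in the same class below 0.1, from 0.1 to 0.9, or above 0.9. The share was more than 0.2 higher in the infertile F1 at 309 pairs, 9.87%, against 8.24% of all pairs with a share. It was more than 0.2 lower at 71 pairs, 2.27%, against 2.93% of all pairs. Both are near the values over all pairs, of which these form the greater part.

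Pairs below 0.1 or above 0.9 in both maps cannot differ by more than 0.1, so the size of the difference is not compared between the classes. At the 1601 pairs with a share from 0.1 to 0.9 in both maps, the median was 0.58 for the infertile F1 and 0.5 for the rescue F1. The median difference was 0.073 (0.067 to 0.079), and the share was higher in the infertile F1 at 1160 and lower at 437. The 499 of them above the median heat in both maps had a median difference of 0.072. Over all 1601 pairs the median difference of an autosome was positive on 18 of 19, from -0.036 to 0.138. In the opposite cross the share was 0.598 in the reciprocal and 0.472 in the Hum/PWD F1 at 2651 such pairs, with a median difference of 0.109 that was positive on 19 of 19 autosomes. At the ends of the scale, the infertile F1 lay closer to 0 and to 1. With a share below 0.1 in both maps the medians were 0.014 in the infertile and 0.0425 in the rescue F1 (n = 210), and above 0.9 they were 0.988 in the infertile and 0.975 in the rescue F1 (n = 944).

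**Figure D4:**
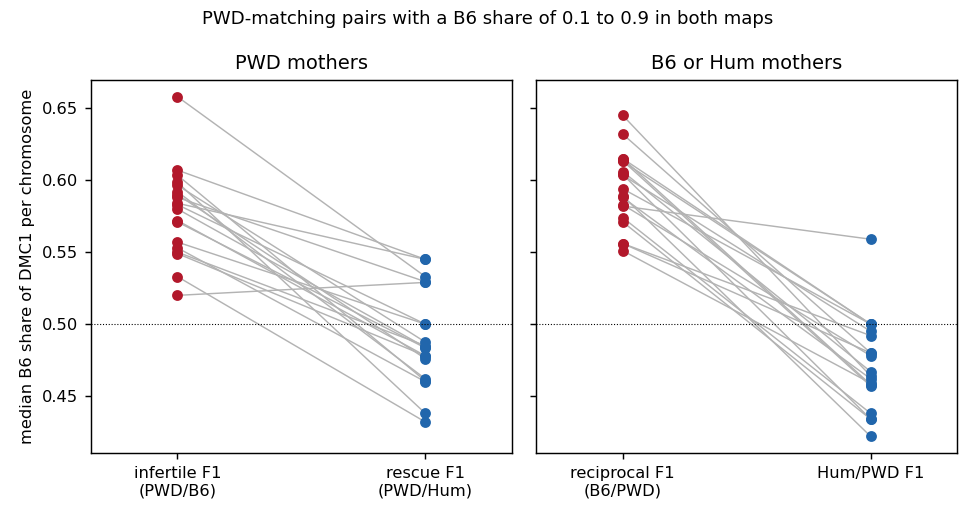
Median B6 share of DMC1 (vertical axis) per autosome at PWD-matching pairs with a share from 0.1 to 0.9 in both maps, with lines that join the same autosome. Left, infertile and rescue F1, where the share is lower in the rescue F1 on 18 of 19 autosomes. Right, reciprocal and Hum/PWD F1, where it is lower in the Hum/PWD F1 on 19 of 19.

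Put as heat per copy, the B6 copies of the 3131 sites together had 1.34 times the scaled heat in the infertile F1 over the rescue F1, and the PWD copies 1.10 times. In the opposite cross the values were 1.34 for the B6 copies and 0.940 for the PWD copies. Heat ratios also differed by class, with a median of 1.52 at pairs from 0.1 to 0.9 in both maps, 1.34 above 0.9 and 1.06 below 0.1. The sites with the largest single differences had less in common. The share was higher in the infertile F1 by 0.673 in an intron of Etv6 (chr6:134113153, 0.713 in the infertile and 0.04 in the rescue F1), by 0.652 in an intron of Schip1 (chr3:68500647, 0.846 in the infertile and 0.194 in the rescue F1) and by 0.617 in an intron of Jph1 (chr1:17016222, 0.617 in the infertile and 0 in the rescue F1). It was lower in an intron of Foxo3, a forkhead transcription factor gene (chr10:42192472, 0.055 in the infertile and 0.907 in the rescue F1), near Fosl2 (0.108 in the infertile and 0.941 in the rescue F1) and near Sall3 (chr18:81030439, 0.249 in the infertile and 0.992 in the rescue F1). Of these 6, those in Schip1, in Foxo3 and near Sall3 lay within 1000 bp of a Hum/Hum hotspot and the one near Fosl2 within 1000 bp of a B6/B6 hotspot. The paired centres lay 739 bp apart at Jph1, 456 bp at Foxo3 and 873 bp at Sall3, so these too may be 2 hotspots. Scaled heat in the infertile F1 was 15.5, 7.62 and 11.6 at Etv6, Schip1 and Jph1. It was 19.4, 197 and 54.3 at Foxo3, Fosl2 and Sall3, against a median of 61.9 over all PWD-matching pairs. How many reads stand behind these shares is not known.

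H3K4me3 came from other libraries, with 2 replicates for each F1. At the 1127 symmetric PWD-matching pairs with at least 10 informative H3K4me3 reads in both F1s, H3K4me3 had a median B6 share of 0.524 for the infertile F1 and 0.533 for the rescue F1. Its median difference was 0.00046 (-0.00496 to 0.00925), with 566 pairs higher and 558 lower. At the same 1127 pairs the B6 share of DMC1 was 0.587 in the infertile and 0.5 in the rescue F1, with 826 higher and 299 lower. The shift toward the B6 copy was thus seen in DMC1 and was not detectable in H3K4me3 at this depth, a median of 63.1 informative reads in the infertile and 30.1 in the rescue table.

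H3K4me3 at PWD-matching pairs was higher in the infertile F1 relative to the sites of the other allele. Mean fragments per 1 kb bin at 3741 pairs were 90.2 and 92.6 in the infertile replicates, against 61.4 and 67.7 in the rescue replicates. Divided by the mean at the B6 sites of the infertile F1 they gave 1.502 and 1.489, and divided by the mean at the Hum sites of the rescue F1 they gave 1.15 and 1.11. The ratio was 1.496 ± 0.00964 in the infertile and 1.13 ± 0.0255 in the rescue F1 (SD, n = 2 each). The groups did not overlap, and the two-sided exact permutation test gave p = 0.333, the smallest that 2 against 2 replicates allow. The denominators belong to different alleles. As a part of the fragments at all pairs, the PWD-matching pairs had 0.744 in the infertile and 0.752 in the rescue F1, a difference of the opposite sign.

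Symmetric hotspots carried less of the heat in the infertile F1. In the infertile F1 57.3% (56.6 to 58.0%) of 21059 hotspots with a B6 share were symmetric, and in the rescue F1 59.8% (59.0 to 60.7%) of 12753. The share by number depended on how deep the lists were. With infertile hotspots under 13.7 left out it was 49.3% in the infertile F1, against 59.8% in the rescue F1, and in the opposite cross it was 45.3% in the reciprocal F1 and 59.8% in the Hum/PWD F1. The symmetric part of the heat at hotspots with a B6 share was 34.3% for the infertile F1 and 53.6% for the rescue F1. Symmetric hotspots had a median deposited heat of 18.6 in the infertile map, where asymmetric ones had 60.5, which is 3.25 times as much. In the rescue map symmetric hotspots had 56.9 and asymmetric ones 80.7, which is 1.42 times as much. These 2 ratios were not compared at a common floor, and symmetric infertile hotspots with no determined allele had a median of 11.2. For hotspots given to the PWD allele the ratio was 2.39 in the infertile and 2.20 in the rescue F1. It was 3.19 for B6-allele hotspots of the infertile F1 and 1.12 for Hum-allele hotspots of the rescue F1. The opposite cross differed the same way, with 27.2% of the heat at symmetric hotspots in the reciprocal and 51.8% in the Hum/PWD F1.

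Every autosome had a lower symmetric share of heat in the infertile F1, and the maps did not overlap. It ran from 28.4% on chromosome 19 to 42.5% on chromosome 1 in the infertile F1, against 49.5% on chromosome 19 to 58.8% on chromosome 5 in the rescue F1. The difference was -24.9 points on chromosome 5, the widest, and -13.6 points on chromosome 1, the narrowest. By number of hotspots the symmetric share was lower in the infertile F1 on 17 of 19 autosomes, with overlapping ranges. Symmetric heat per Mb was lower in the infertile F1 on 19 of 19 autosomes, with 83.2 to 210 against 139 to 285 in the rescue F1. Chromosome 9 had the least in both maps. Chromosomes with more symmetric heat per Mb in the infertile F1 tended to have a higher heat ratio at PWD sites (rho 0.71, n = 19), whereas the symmetric share of heat in the infertile F1 had a rho of -0.32 with that ratio. All hotspots of a chromosome enter both measures through the scaled heat, so they are not independent.

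**Figure D5:**
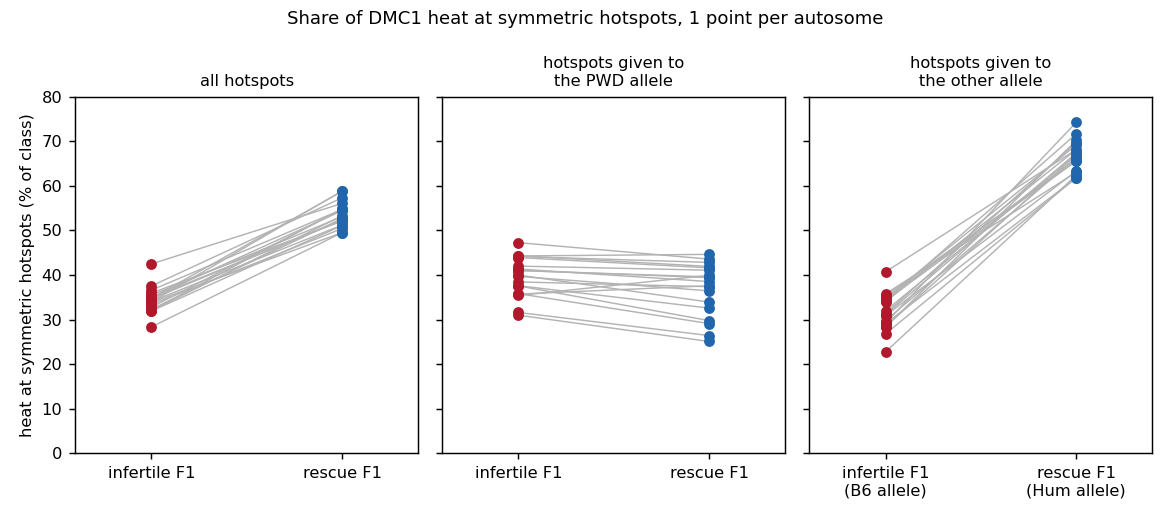
Share of DMC1 heat at symmetric hotspots (vertical axis, % of the heat at hotspots with a B6 share) per autosome, with lines that join the same autosome. For all hotspots the infertile values (28.4 to 42.5%) lie below all rescue values (49.5 to 58.8%). The middle panel shows hotspots given to the PWD allele, where the ranges overlap, and the right panel those given to B6 in the infertile and to Hum in the rescue F1, where they are apart.

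The gap was seen at hotspots of the allele that differs. By the allele column of the authors, hotspots of the PWD allele had 39.6% of their heat at symmetric sites in the infertile and 37.3% in the rescue F1, and the infertile value was the higher on 16 of 19 autosomes. Hotspots of the B6 allele in the infertile F1 had 31.9%, and hotspots of the Hum allele in the rescue F1 had 66.8%. These differed on 19 of 19 autosomes with no overlap, from 22.8 to 40.7% in the infertile against 61.8 to 74.2% in the rescue F1. In points of the heat at all hotspots with a B6 share, symmetric Hum sites gave 41.1 of the 53.6 points in the rescue F1. Symmetric B6 sites gave 12.9 of the 34.3 points in the infertile F1. Symmetric PWD sites gave 18.3 points in the infertile and 9.91 in the rescue F1, where all PWD-allele hotspots held 46.1 and 26.6 points. Asymmetric B6-allele hotspots lay mostly on the PWD copy, with 36.4% of all B6-allele hotspots below a share of 0.1 and 9.22% above 0.9. PWD-allele hotspots leaned to the B6 copy in both F1s, with 31.3% above 0.9 in the infertile and 36.8% in the rescue F1. Hum-allele hotspots had 12.3% below 0.1 and 19.9% above 0.9. Hotspots with no determined allele gave 2.46 points in the infertile and 1.39 in the rescue F1. Of the symmetric ones among them in the infertile F1, 83.4% lay in bins marked by the authors for PRDM9-independent H3K4me3 or with input above 10 times the median. Their part in the counts is given by leaving such bins out, after which 53.0% of hotspots and 33.1% of heat were symmetric in the infertile F1, against 59.4% and 52.9% in the rescue F1.

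The position relative to genes differed little between the alleles. Centres of PWD-matching pairs lay in introns of protein-coding genes in 48.9% and between genes in 45.4%, with 2.84% in coding exons. Infertile hotspots of the B6 allele had 47.4% in introns and 47.0% between genes. Rescue hotspots of the Hum allele had 51.4% in introns and 43.2% between genes.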

How the data were processed

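DMC1 ChIP-seq maps of 7 genotypes with 1 library each and H3K4me3 tables of the infertile and rescue F1 with 2 replicates each were used as deposited. The submitters' processing notes name BWA as aligner, SAMtools, bedtools and the build mm10. For the hotspot caller and the definition of heat, nothing is given in the sources used here. Heat is a relative DMC1 signal made by the authors. Its autosomal sum is similar in all maps, so it does not show total break number. The B6 share of DMC1 was deposited as a fraction, without its number of informative reads, so no interval per site was made. The authors also gave each hotspot an allele. H3K4me3 counts, per the file headers, are fragments per 1 kb bin centred on a hotspot, the enrichment is a ratio to local background, its p-value comes from a likelihood ratio test (not used further), the B6 share is an estimated fraction, and informative reads are a signal after subtraction of background. Bins likely to hold PRDM9-independent H3K4me3 carry a mark, per the file headers.

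Heat was scaled to a sum of 1000000 over the autosomes of each map. Centres were paired within 1000 bp when mutually nearest. Ratios are infertile over rescue and differences infertile minus rescue. Medians carry exact binomial (order-statistic) 95% intervals and shares Wilson 95% intervals, all for counting error only. A site was called past a 2-fold heat ratio or a share difference of 0.2. With 1 library per genotype no DMC1 difference was tested. H3K4me3 ratios were compared by an exact permutation test. Named sites are the 5 hottest PWD/PWD sites that match a pair, the 3 highest and 3 lowest heat ratios and share differences among pairs in the upper quartile of PWD/PWD heat, the 3 hottest PWD/PWD sites found in 1 F1 alone, and the 3 hottest symmetric pairs, without sites whose input exceeded 10 times the median. Sites took the GENCODE M21 protein-coding gene that holds their centre or else the nearest one. Printed sequences are the hottest sites of each class that held the word, outside UTRs and chromosome 18. The pairing code was tested on simulated data. Versions were SciPy 1.17.1, pandas 2.3.3, Matplotlib 3.10.9, NumPy 2.4.6 and Python 3.11.15. The members and lists were chosen with earlier results of these data known. The B6/Hum and B6 by CAST maps, the other H3K4me3 tables and the sex chromosomes were not analysed here.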

Additional observations from a re-analysis of the deposited data

Results flagged for a closer look

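Several measures differed in opposite directions in the 2 directions of the cross, infertile minus rescue F1 with PWD mothers and reciprocal minus Hum/PWD F1 with PWD fathers. Each is a single library per genotype, so the difference between the crosses was not tested. The number of autosomal hotspots differed by 8535 in the first and by -3107 in the second. The lowest heat called differed by -9.7 and by 0.6, and the median heat by -32.4 and by 3.2, in deposited units. The share of hotspots without a B6 share differed by -4.49 points and by 1.16 points. These 4 measures describe how long and how deep a list is.

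The difference in the share of symmetric hotspots by number changed sign between the crosses in several classes of match. Over all hotspots it did not, with -2.55 and -14.6 points, nor at hotspots that matched the other homozygous map only, with 65.3% in the infertile and 74.6% in the rescue F1, and 58.9% in the reciprocal and 74.3% in the Hum/PWD F1. At hotspots that matched the PWD/PWD map only, the infertile F1 had 70.7% and the rescue F1 59.8%, a difference of 10.8 points, and the reciprocal F1 had 61.0% and the Hum/PWD F1 64.4%, a difference of -3.34 points. At hotspots that matched neither homozygous map the differences were 9.28 and -16.8 points. The few hotspots that matched both homozygous maps also changed sign, with intervals that overlap within each cross. There the infertile F1 had 77.9% (n = 299) and the rescue F1 75.2% (n = 238). The reciprocal F1 had 72.2% (n = 227) and the Hum/PWD F1 78.4% (n = 292). The infertile list reached the lowest heat of the 4, and its symmetric hotspots were weaker than its asymmetric ones. Of symmetric hotspots with no determined allele, 83.4% in the infertile and 26.3% in the rescue F1 lay in marked or high-input bins. Such bins were not looked up for the opposite cross. The parts of list depth and of such bins in these differences were not tested.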

How the results depend on the processing

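The number of pairs stayed within 1.5 times of 5175 under all 5 alternatives tried (4945 to 7411). The log2 heat ratio at PWD-matching pairs, 0.51, was positive in each setting. It was 0.55 with heat as deposited, 0.54 without sites that matched the B6/B6 or Hum/Hum map, 0.54 by the authors' allele column, 0.54 in the upper quartile of PWD/PWD heat, 0.32 in the opposite cross and 0.64 in the hottest 10% with missing sites at the lowest heat, a setting added after the data were seen. Leaving out 1 autosome at a time gave 0.48 to 0.53. The B6 share difference, 0.022, was 0.0434 as a mean, 0.015 above the median heat in both maps, 0.038 in the opposite cross and 0.073 at pairs from 0.1 to 0.9 in both maps, the last added after the data were seen. The excess of PWD/PWD hotspots found in the infertile F1, 27.9 points, was 14.0 points at the common floor, 5.06 in the opposite cross and 11.98 with the hottest hotspots in lists of equal length, also added later. The symmetric share by number, -2.55 points, was -0.674 with limits of 0.2 to 0.8, -1.14 with 0.3 to 0.7, -10.5 at the common floor, -11.9 with lists of equal length, -6.40 without marked or high-input bins and -14.6 in the opposite cross. By heat, -19.3 points became -17.6, -16.0, -21.0 and -21.3 under the first 4 of these settings and -24.6 in the opposite cross. Leaving out 1 autosome gave -2.89 to -2.24 by number and -19.6 to -18.9 by heat. The H3K4me3 difference of 0.367 ran from 0.349 to 0.385 without 1 replicate was 1.05 with the authors' enrichment (1.97 in the infertile and 0.920 in the rescue F1, not divided by other sites), and turned to -0.0086 as a part of all pairs. The planned 8-letter word of the PWD/PWD map was at 7.80% of PWD-matching pairs against 9.03% away (-1.23 points), with -0.292 points in 100 bp windows, and 7 letters gave 7.11 points, a reversed sign. The cause of these changes was not tested. No paired analysis was possible because each DMC1 map is 1 library and the H3K4me3 replicates are columns whose numbers are not stated to match between crosses. The rescue map holds no hotspot under a deposited heat of 13.7, for a reason that was not tested. All B6 shares rest on an unknown number of reads.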
